A study of Mus musculus with 8 samples.

Results

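The genes described here encode proteins that coat lipid droplets, fuse them or help build them. They are the perilipins Plin1, Plin2, Plin3, Plin4 and Plin5, the CIDE proteins Cidea, Cideb and Cidec, and the assembly factors Bscl2 and Fitm2. They were taken by exact symbol from a count table of 31854 rows. A row was found for 9 of the 10, each on a single row, and all 9 passed the filter on low counts; Cideb had no row under its symbol and was not analysed here. RNA was sequenced from whole epididymal white adipose tissue of mice on a high-fat diet, in 4 libraries from S273A mice (replicates 2, 3, 4 and 6) and 4 from WT mice (replicates 1, 2, 3 and 5). S273A is a knock-in allele of Pparg, the gene of the nuclear receptor PPAR-gamma, in which Ser273 is replaced by alanine; WT mice carry the unchanged receptor. The titles mark the S273A libraries AA, and the sources used here do not say what the letters stand for; they give no strain or age and do not state in words whether the allele was on both chromosomes. No label says that each library is a different animal, so the p-values reflect only how far the libraries differ, possibly for technical reasons.

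A lipid droplet is a core of triglyceride under a single layer of phospholipid, and its coat proteins decide how readily lipases reach the core. In a white fat cell perilipin 1 covers the droplet and holds back the lipase activator ABHD5 until adrenergic signalling phosphorylates the coat, while CIDEC joins droplets into the large single droplet of the cell. Perilipin 2 coats droplets in most other cells, lipid-laden macrophages among them. Several of these genes, Plin1 and Cidec among them, are established PPAR-gamma targets in fat cells.

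Total counts ran from 16161127 to 18194889 in S273A and from 14880239 to 17266209 in WT. The 9 genes together took 0.476% ± 0.037 of all counts in S273A libraries and 0.463% ± 0.056 in WT libraries (SD, n = 4 each). The adipocyte identity of the tissue was checked with 15 marker genes, all detected, led by the lipase gene Lpl at 3595 ± 314 CPM in S273A and 3712 ± 551 CPM in WT. CPM here are counts relative to the TMM-scaled library size. Macrophage markers were abundant as well: all 15 were detected, led by Gpnmb, a glycoprotein of lipid-laden macrophages, at 2366 ± 430 CPM in S273A and 2406 ± 565 CPM in WT. Because the tissue was sequenced in bulk, fewer cells of a type and less RNA per cell cannot be told apart. WT replicate 2 stood apart, with the lowest summed adipocyte marker level (10538 CPM, against 11731 to 14856 CPM in the other 7 libraries) and the highest summed macrophage marker level (10177 CPM, against 7328 to 8441 CPM).

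The promoters of Plin1, Plin4, Cidec and Plin2 are shown because the first 3 are the abundant genes typical of fat cells and Plin2 is the one typical of macrophages, and their levels over the libraries are set against each other further on. Each sequence is the 250 bases before an annotated RefSeq transcription start (GRCm38.p6, the assembly that mm10 names), read 5′ to 3′ on the gene's own strand, which is the minus strand for all 4 genes. The window of Plin1 is chr7:79732777-79733026 and that of Plin4 is chr17:56109783-56110032. Cidec has 2 annotated starts, with windows at chr6:113435761-113436010 (upstream) and chr6:113434765-113435014 (downstream). The window of Plin2 is chr4:86670060-86670309. Capitals mark matches, on either strand, to TTGCNNAA, a pattern of the kind bound by C/EBP factors, or to AGGTCA, the hexamer that nuclear receptors bind.
Plin1: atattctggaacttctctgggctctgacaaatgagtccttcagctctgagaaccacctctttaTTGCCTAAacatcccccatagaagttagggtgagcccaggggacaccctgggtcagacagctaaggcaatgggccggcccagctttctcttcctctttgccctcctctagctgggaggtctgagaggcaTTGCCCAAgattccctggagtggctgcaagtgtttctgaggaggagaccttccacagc
Plin4: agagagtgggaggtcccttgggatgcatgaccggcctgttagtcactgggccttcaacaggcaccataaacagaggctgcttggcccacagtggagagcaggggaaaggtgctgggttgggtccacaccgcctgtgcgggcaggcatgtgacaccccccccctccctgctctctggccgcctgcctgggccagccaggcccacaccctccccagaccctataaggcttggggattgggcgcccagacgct
Cidec upstream start: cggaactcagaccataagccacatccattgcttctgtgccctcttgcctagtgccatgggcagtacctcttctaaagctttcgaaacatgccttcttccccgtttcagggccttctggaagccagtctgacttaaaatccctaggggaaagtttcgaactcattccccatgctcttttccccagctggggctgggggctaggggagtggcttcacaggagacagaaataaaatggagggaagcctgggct
Cidec downstream start: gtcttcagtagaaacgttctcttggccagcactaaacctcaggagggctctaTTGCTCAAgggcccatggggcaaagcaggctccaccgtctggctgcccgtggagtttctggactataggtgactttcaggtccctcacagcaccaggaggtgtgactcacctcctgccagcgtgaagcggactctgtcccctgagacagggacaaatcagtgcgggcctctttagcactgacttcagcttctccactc
Plin2: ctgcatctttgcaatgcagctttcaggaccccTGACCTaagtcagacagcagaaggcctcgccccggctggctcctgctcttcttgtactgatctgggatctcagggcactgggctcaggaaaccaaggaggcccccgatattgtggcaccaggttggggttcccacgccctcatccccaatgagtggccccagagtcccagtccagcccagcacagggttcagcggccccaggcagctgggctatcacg
Plin1 held 2 matches to TTGCNNAA, from -187 to -180 and from -58 to -51 relative to the start, and the downstream Cidec start held 1, from -198 to -191; 9.56% of 32851 such windows of all genes held at least 1. Plin2 held 1 match to AGGTCA, from -218 to -213, a match that 14% of all windows held. The same hexamer occurred in a window of Plin5 (-170 to -165) and of Bscl2 (-202 to -197). The consensus form of the PPAR response element, AGGTCANAGGTCA, which contains that hexamer, was found in 0 of the 13 windows of the 9 genes with an entry. It occurred in 0.0335% of all windows, so 0 matches in 13 windows tell nothing about these genes. A match is a description of these letters. Only exact matches were counted, so a window without one says nothing about binding within it or elsewhere at the gene.

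The genotype comparison asks whether droplet genes differ in this depot when Ser273 of PPAR-gamma cannot be phosphorylated. None of the 9 genes was called in edgeR's quasi-likelihood test at an adjusted p under 0.05, and the smallest adjusted p was above 0.99. The background over the whole table was 0 of 15667 rows called, or 0%. At an unadjusted p under 0.05 in edgeR there were 0 of the 9 genes, against 1.46% of all rows. At an adjusted p under 0.05, limma-voom called 0 rows and DESeq2 called 1, which was not a droplet gene. In none of the 9 genes did the genotypes separate without overlap, against 1.19% of all rows. The estimate was positive in 8 genes and negative in 1, and its median was 0.03 on the log2 scale, beside a median of 0.001 over all rows, of which 50.7% had positive and 49.3% negative estimates. Of the 8 positive estimates, 6 were below 0.06, and 7 of the 9 genes changed sign in at least 1 of the fits that left out a library; Cidea and Plin3 did not.

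**Figure D1:**
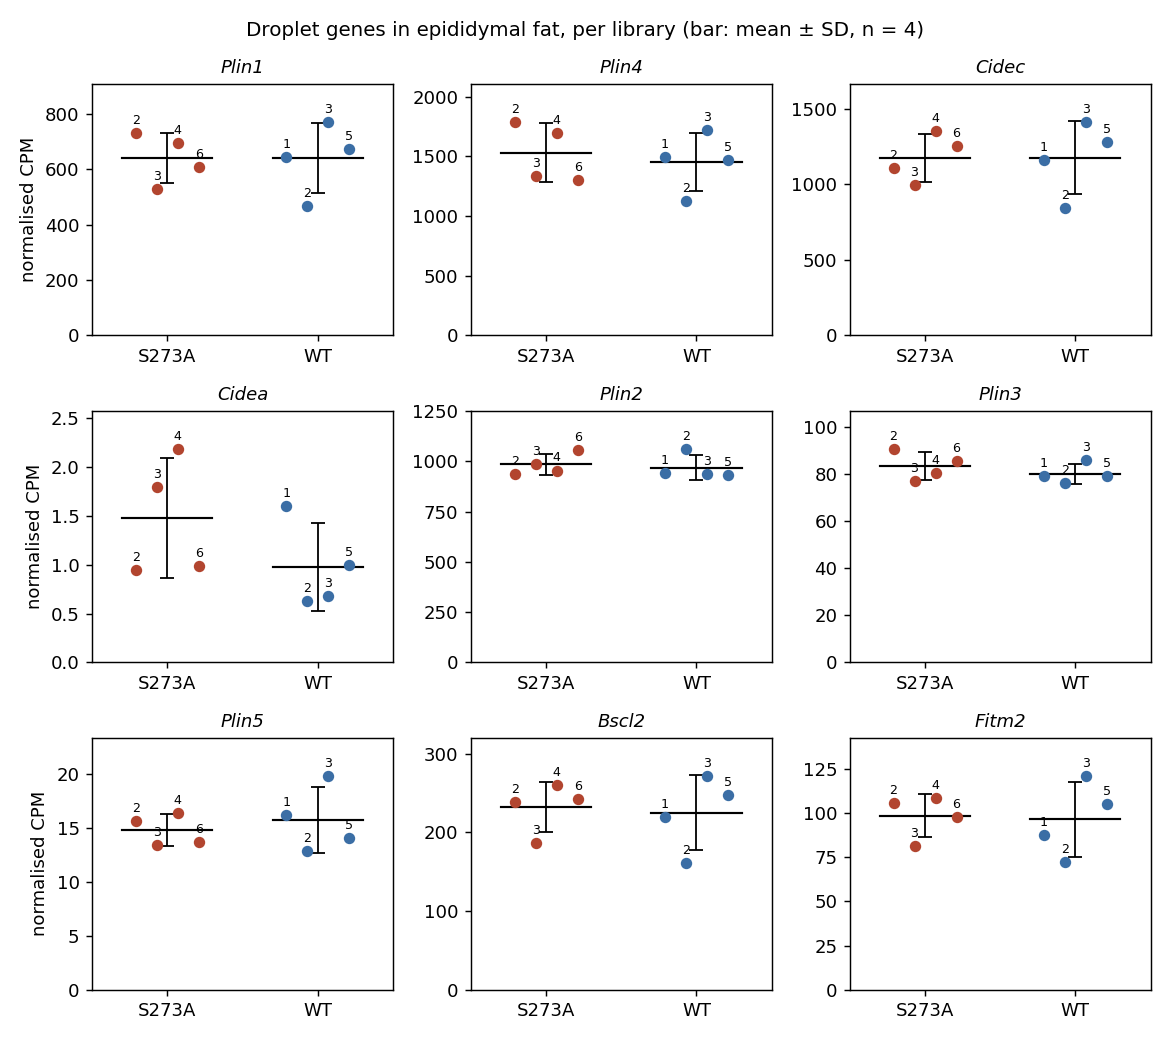
Normalised CPM of the 9 droplet genes on linear axes from 0, with 1 point per library (labelled with its replicate number), S273A left of WT, and bars for the mean ± SD (n = 4). The genotypes overlap in every panel, and WT replicate 2 is the lowest library for Plin1, Plin4, Cidec, Plin5, Bscl2, Fitm2, Plin3 and Cidea but the highest for Plin2.

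Plin1, the perilipin that guards the droplet of the fat cell, was at 729, 527, 695 and 608 CPM in S273A replicates 2, 3, 4 and 6, against 643, 467, 770.0 and 674 CPM in WT replicates 1, 2, 3 and 5. The lowest and the highest values were both WT libraries, and all S273A values lay between them. The means were 639.7 ± 91.1 CPM in S273A and 639 ± 126 CPM in WT (SD, n = 4 each). The log2 fold change was 0.003 (95% confidence interval -0.34 to 0.34; SE 0.15). That interval spans folds from 0.791 to 1.27, so these 8 libraries are compatible with any difference inside it. It is not a limit of detection: calls needed a p-value adjusted over all tested rows, so larger differences could also go uncalled.

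Plin4, which coats small nascent droplets in white fat cells, was at 1788, 1337, 1696 and 1300.1 CPM in S273A, against 1492, 1125, 1718 and 1467 CPM in WT. S273A replicate 2 was the highest of the 8 libraries and WT replicate 2 the lowest. The log2 fold change was 0.08 (95% confidence interval -0.25 to 0.41; SE 0.15). The gene lies on chromosome 17 from 56100591 to 56109803 on the minus strand, 1797 bases from Plin5 and in the same cluster as Plin3. Of its exon bases, 17 are shared with Hdgfl2 on the opposite strand, and the libraries do not record strand.

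Cidec, the fusion protein also known as FSP27, was at 1105, 994, 1354 and 1253 CPM in S273A, against 1163, 845, 1412 and 1277 CPM in WT. The S273A values lay within the WT range. Its log2 fold change was 0.003 (95% confidence interval -0.35 to 0.35; SE 0.16). Among the members it is the only one on the chromosome of the altered gene: it occupies chromosome 6 from 113424634 to 113435760 on the minus strand, 1.93 Mb from Pparg, and no annotated gene shares its exon bases. Relative to Plin1, and per length, Cidec was 2.95, 3.67, 3.79 and 4.02 times as abundant in S273A libraries, against 3.52, 3.52, 3.57 and 3.69 times in WT libraries. The 4 WT ratios thus lay close together, and the S273A ratios extended beyond them on both sides, with S273A replicate 2 the lowest.

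Cidea, which in the mouse is typical of brown and beige fat cells, was barely detected. Its counts were 17, 32, 38 and 16 in S273A, against 27, 11, 10 and 17 in WT, or 1.48 ± 0.61 CPM in S273A and 0.978 ± 0.447 CPM in WT (SD, n = 4 each). The genotypes overlapped, with 2 S273A libraries above every WT library. Its estimate was the farthest from 0 of the 9, a log2 fold change of 0.59, but the standard error was 0.38 and the 95% confidence interval ran from -0.26 to 1.44 (edgeR unadjusted p 0.151; exact two-sided permutation p 0.229, n = 4 each, where 0.0286 is the smallest possible). Without S273A replicate 4, the highest library, the estimate was 0.34, and without WT replicate 1 it was 0.94 (edgeR unadjusted p 0.0377, adjusted p above 0.99). Other markers of brown and beige fat were low as well: all 9 were detected, led by Otop1, a proton channel gene, at 20.4 ± 5.50 CPM in S273A and 18.3 ± 4.80 CPM in WT, then Cpt1b at 13.7 ± 1.96 CPM in S273A and 11.9 ± 2.92 CPM in WT and Ppargc1a at 8.21 ± 2.89 CPM in S273A and 7.83 ± 1.85 CPM in WT. Ucp1, the uncoupling protein that defines brown fat, had between 0 and 18 counts per library. None of the 9 was called, and 7 had positive estimates (median log2 fold change 0.15).

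Plin2, also called adipophilin, coats droplets in macrophages and many other cells. It was at 939, 988, 955 and 1056 CPM in S273A, against 943, 1061, 938 and 932 CPM in WT. Of the 8 libraries, 6 lay between 932 and 988 CPM, and S273A replicate 6 and WT replicate 2 stood above them. Its log2 fold change was 0.02 (SE 0.07), and the 95% confidence interval of -0.13 to 0.18 corresponds to folds from 0.911 to 1.14. Plin2 was the steadiest of the 9 genes over the libraries, with a coefficient of variation of 5.49%, against 15.6% to 16.1% for Plin1, Plin4 and Cidec.

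Plin3, known as TIP47, is found in the cytosol of most cells and moves onto new droplets. It was at 90.4, 76.8, 80.1 and 85.6 CPM in S273A, against 79.1, 75.9, 85.9 and 79.0 CPM in WT. S273A replicate 2 lay above all WT libraries and the other 3 within their range. The log2 fold change was 0.06 (95% confidence interval -0.09 to 0.20; SE 0.06), and the coefficient of variation over the 8 libraries was 6.27%.

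Plin5 ties droplets to mitochondria in oxidative tissues such as heart and muscle. It was at 15.7, 13.4, 16.4 and 13.7 CPM in S273A, against 16.2, 12.9, 19.8 and 14.1 CPM in WT, and was the 1 gene of the 9 with a negative estimate (log2 fold change -0.09; 95% confidence interval -0.39 to 0.21; SE 0.13). Without WT replicate 3, its highest library, the estimate was 0.04. Skeletal muscle is another tissue that expresses Plin5 and Plin4. Transcripts from the muscle marker list were counted in all 8 libraries, but whether each held muscle tissue was not tested. Myh4, a fast myosin heavy chain, had 237 counts in S273A replicate 6 and at most 2 in any other library. Myh1 had at most 4 counts in any library. Of the 7 muscle markers, 6 had a row; their summed level ran from 92.4 to 180 CPM in S273A and from 99.5 to 146 CPM in WT, mostly Acta1 (145 ± 40.3 CPM in S273A and 120.4 ± 24.1 CPM in WT). Pvalb, a calcium buffer of fast muscle, was at 3.06 ± 1.76 CPM in S273A and 3.22 ± 1.23 CPM in WT. Mylpf, a fast muscle myosin light chain, had 7 to 30 counts per library and stayed below the filter. It was at 0.970 ± 0.591 CPM in S273A and 0.472 ± 0.055 CPM in WT (SD, n = 4 each). All 4 S273A libraries lay above every WT library (exact two-sided permutation p 0.0286, the smallest possible). Mylpf was picked after its values were seen, and 1.19% of tested rows separated in either direction. Its highest library was S273A replicate 6 (30 counts, at most 14 elsewhere). The same library was highest for Tnnt3 (40 counts, at most 10 elsewhere) and Pvalb (89 counts, at most 72 elsewhere). Acta1 and Myh1 were highest in other libraries. In S273A replicate 6 Plin5 was lower than in 2 of the other 3 S273A libraries, and without that library its log2 fold change was -0.05 and that of Plin4 was 0.15.

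Bscl2 encodes seipin, the endoplasmic reticulum protein at the neck of growing droplets whose loss causes congenital lipodystrophy. It was at 238, 186, 261 and 242 CPM in S273A, against 219, 161, 271 and 248 CPM in WT, with a log2 fold change of 0.04 (95% confidence interval -0.31 to 0.40; SE 0.16). The S273A values lay within the WT range. Its count is uncertain, because 398 of its exon bases are shared with Gng3 on the opposite strand and 239 with a gene model on its own strand.

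Fitm2, a protein of the same membrane needed for droplets to bud, was at 106, 81.6, 109 and 97.6 CPM in S273A, against 87.8, 72.1, 121 and 105 CPM in WT (log2 fold change 0.03; 95% confidence interval -0.31 to 0.37; SE 0.15). The S273A values again lay within the WT range. An antisense transcript shares 227 of its exon bases.

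**Figure D2:**
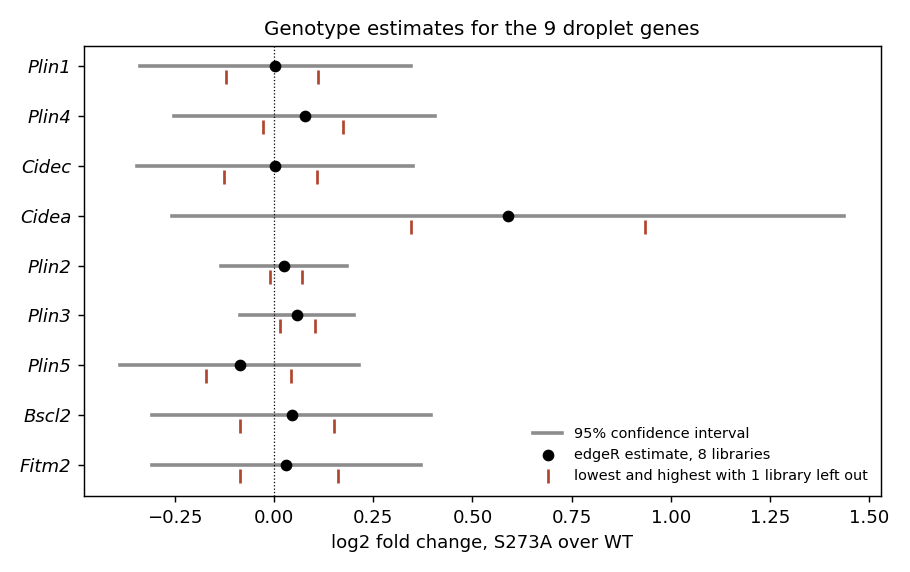
Log2 fold changes of S273A over WT from edgeR (black points) with 95% confidence intervals (grey) for the 9 genes, and the lowest and highest estimate when 1 of the 8 libraries was left out (red ticks). All 9 intervals include 0; those of Plin2 and Plin3 are the narrowest and that of Cidea, with 10 to 38 counts per library, is the widest.

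Set against transcript length, the 9 genes differed widely in level. RPKM, the CPM divided by the row's feature length in kilobases, averaged over all 8 libraries 683 ± 110 for Cidec, 517 ± 28.4 for Plin2, 259 ± 40.3 for Plin4 and 191 ± 30.4 for Plin1 (SD, n = 8). Of the 15667 tested rows, Cidec ranked 23rd by this measure, Plin2 36th, Plin4 77th and Plin1 128th. Next came Bscl2 at 50.6 ± 8.36, Fitm2 at 46.4 ± 7.61, Plin3 at 37.8 ± 2.37, Plin5 at 7.48 ± 1.11 and Cidea at 1.06 ± 0.48 RPKM.

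The order between neighbours was not firm everywhere. Cidec exceeded Plin2 in 7 of 8 libraries, the exception being WT replicate 2 with 491 RPKM for Cidec and 562 RPKM for Plin2. Their ratio averaged 1.31 ± 0.19 in S273A and 1.35 ± 0.34 in WT (SD, n = 4 each). The ranges of Plin4 and Plin1 overlapped, yet Plin4 was higher in 8 of 8 libraries. Bscl2 exceeded Fitm2 in 8 of 8 libraries by a mean factor of 1.09 ± 0.05, and Fitm2 exceeded Plin3 in 7 of 8. Both Bscl2 and Fitm2 share exon bases with other annotated genes, which could shift their levels alike in every library. Whether such reads set their order was not tested. Between Plin2 and Plin4, Plin1 and Bscl2, Plin3 and Plin5, and Plin5 and Cidea the ranges over libraries did not overlap.

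**Figure D3:**
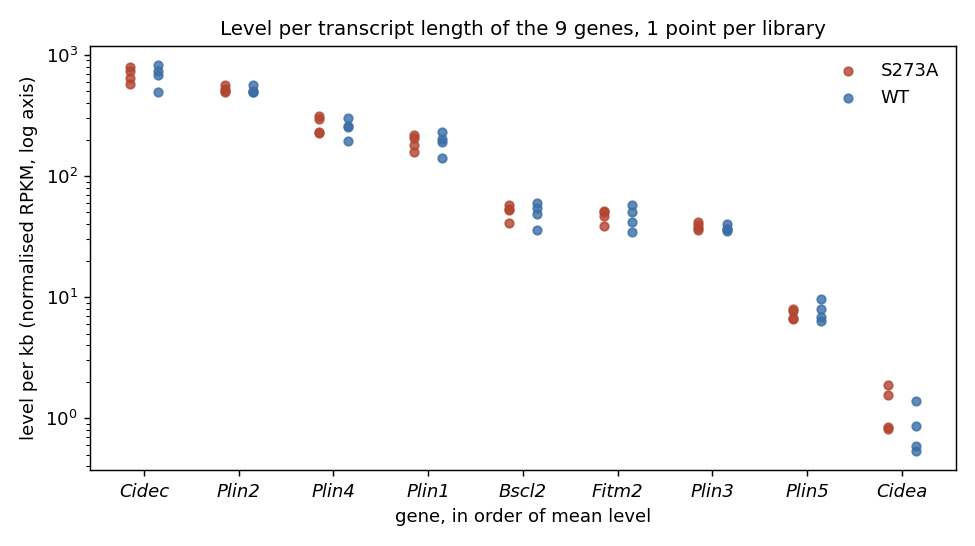
Level per kilobase of transcript (normalised RPKM, log axis) of the 9 genes in order of their mean, with 1 point per library and S273A left of WT. Cidec and Plin2 lie between 491 and 821 RPKM, Cidea between 0.537 and 1.88 RPKM, and the genotypes overlap for each gene.

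Plin1, Plin4, Cidea and Cidec were then set against Plin2 and Plin3, as genes typical of fat cells against genes of macrophages and cells in general. The mean log2 CPM of the fat-cell genes minus that of the other pair was -0.56, -0.53, -0.17 and -0.73 in S273A replicates 2, 3, 4 and 6, against -0.38, -1.07, -0.53 and -0.49 in WT replicates 1, 2, 3 and 5. The genotypes overlapped, and the difference between their means, 0.12, was smaller than the SD within S273A (0.23) or WT (0.31). It was -0.03 without WT replicate 2 and -0.003 without Cidea. The per-library values were negative only because they include Cidea, which was barely detected. Without Cidea they ran from 1.69 to 2.08 in S273A and from 1.43 to 2.12 in WT. Per length, Plin1 stood at 0.437, 0.300, 0.411 and 0.324 of the Plin2 level in S273A, against 0.384, 0.248, 0.463 and 0.408 in WT. The ratio was thus lowest in WT replicate 2 and highest in WT replicate 3, with all S273A libraries between.

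Over the 8 libraries Plin1 and Plin4 followed the adipocyte markers, pooled and within genotypes. The adipocyte score is the mean of row-centred log2 CPM over the 15 markers, which include none of the 9 genes; the macrophage score was made in the same way. Gene and score come from the same libraries and share their scaling. At an unadjusted p under 0.05 in an exact permutation test of Pearson's r, 8 of the 9 genes passed with the adipocyte score, against 19.3% of 15652 tested rows (the markers of the score left out), and 3 of the 9 with the macrophage score, against 12.9%. With p-values adjusted over all those rows, Plin1 and Plin4 passed with the adipocyte score (adjusted p 0.0299 and 0.0303), as did 1.13% of rows, and the other 7 genes did not; with the macrophage score no gene passed, and 0% of rows did. Adjusted instead over the 18 relations computed for the 9 genes and 2 scores, as the p-values below are, 8 passed, 6 with the adipocyte score and 2 with the macrophage score; the members were chosen with earlier results known, so this count is not independent support. Plin1 had r = 0.96 with the adipocyte score (exact permutation p = 9.9206e-05, adjusted 0.00112) and Spearman's rho = 0.98 (exact permutation p = 0.000397). Without S273A replicate 2 and WT replicate 2, the libraries farthest from the median score, r was 0.96 (n = 6, exact permutation p = 0.00278), and with each genotype centred on its own mean it was 0.97. Plin4 gave r = 0.98 (exact permutation p = 0.000124, adjusted 0.00112) and rho = 0.95 (p = 0.00114), with r = 0.95 without those 2 libraries and 0.98 within genotypes.

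Bscl2 and Fitm2, which many cell types use, had positive relations with the adipocyte score that passed over the 18 relations but not over all rows. Fitm2 had r = 0.89 (exact permutation p = 0.00372, adjusted 0.0173) and rho = 0.90 (p = 0.00456), with 0.87 without the 2 libraries. Bscl2 had r = 0.84 (exact permutation p = 0.00821, adjusted 0.0246), but rho was 0.71 (p = 0.0576), and with the marker list without its 3 most abundant members the adjusted exact permutation p was 0.062. Plin5 had r = 0.78 (exact permutation p = 0.022, adjusted 0.0496) and rho = 0.81 (p = 0.0218). It did not pass with that shorter marker list (adjusted exact permutation p 0.0713) or with DESeq2 size factors (0.0508). Cidec did not pass: r was 0.72 (exact permutation p = 0.045, adjusted 0.0736) and rho 0.62 (p = 0.115). Without the 2 libraries r was 0.83 (n = 6, exact permutation p = 0.0375). Of these 2, S273A replicate 2 had the highest adipocyte score and the sixth highest Cidec level. Its summed adipocyte marker level, 13732 CPM, was not the highest. S273A replicate 4 (14074 CPM) and WT replicates 1, 3 and 5 (13735, 14856 and 13960 CPM) lay above it. Cidea showed no relation that could be detected (r = 0.10, rho near 0; exact permutation p = 0.812 for r and 1 for rho).

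Plin2 and Plin3, the genes of macrophages and cells in general, had relations of opposite sign. Plin2 ran against the adipocyte score, with r = -0.83 (exact permutation p = 0.00794, adjusted 0.0246), rho = -0.76 (p = 0.0368) and r = -0.88 within genotypes; without the 2 libraries r was -0.72 (n = 6, exact permutation p = 0.111). With DESeq2 size factors the Plin2 relation did not pass (r = -0.79, adjusted exact permutation p 0.0508; rho = -0.60, p = 0.132). Plin3 had a positive r of 0.73 (exact permutation p = 0.0425, adjusted 0.0736) and rho of 0.83 (p = 0.0154), and r of 0.36 without the 2 libraries (n = 6, exact permutation p = 0.472). With the macrophage score Plin2 had r = 0.66 (exact permutation p = 0.0802, adjusted 0.103) and rho = 0.33 (p = 0.428), which did not pass, and Plin3 had r = -0.72 (exact permutation p = 0.0397, adjusted 0.0736) and rho = -0.76 (p = 0.0368). Plin1 and Plin4 ran against the macrophage score, with r of -0.80 and -0.88 (exact permutation p = 0.0165 and 0.00384, adjusted 0.0425 and 0.0173; rho = -0.64 and -0.81, p = 0.0962 and 0.0218). Without the 2 libraries these were -0.46 and -0.64 (n = 6, exact permutation p = 0.381 and 0.188), beside 0.96 and 0.95 with the adipocyte score in the same 6 libraries (exact permutation p = 0.00278 and 0.0139). The 2 scores were themselves inversely related (r = -0.86, exact permutation p = 0.0065; rho = -0.71, p = 0.0576), so relations with one are not independent of relations with the other.

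**Figure D4:**
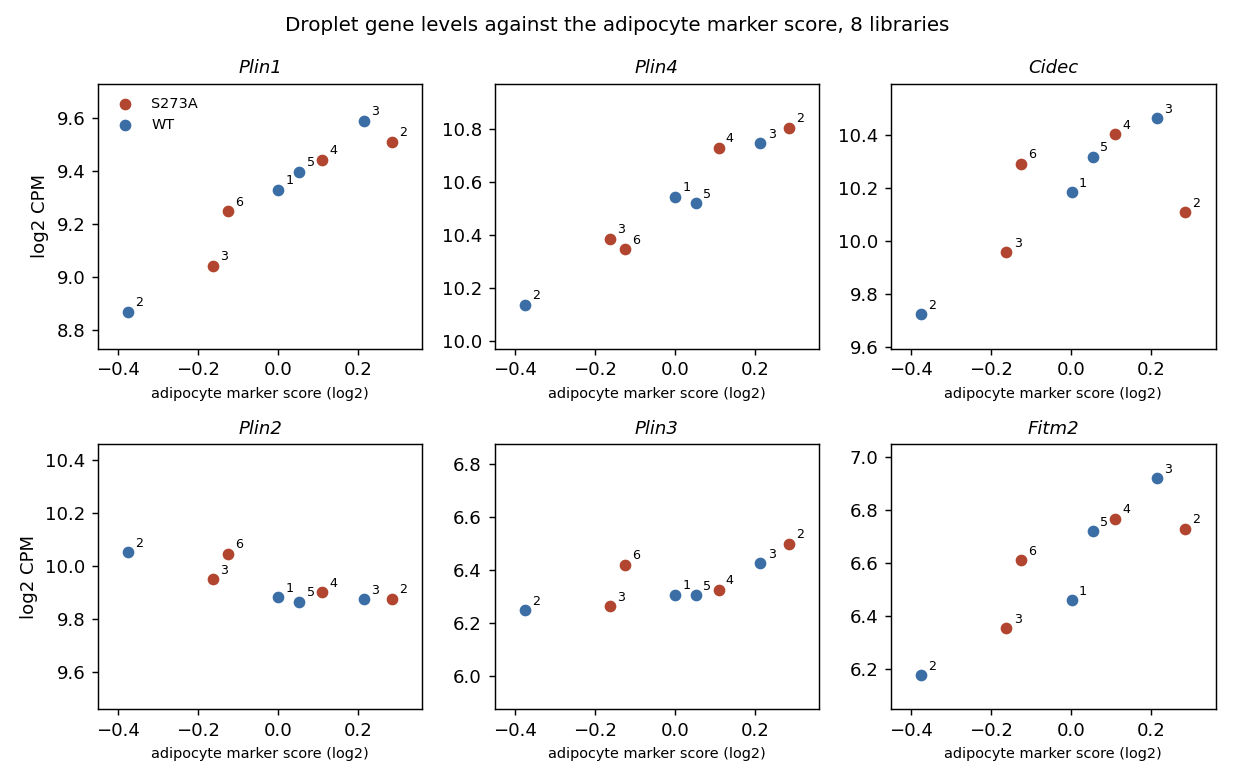
Log2 CPM of 6 droplet genes against the adipocyte marker score of each library (8 points, coloured by genotype and labelled with the replicate number); every vertical axis spans 1 log2 unit. Plin1 and Plin4 rise with the score (r = 0.96 and 0.98), Plin2 falls (r = -0.83), and points of both genotypes are interleaved along the score.

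The rows most like Plin1 over the 8 libraries, by Pearson's r of log2 CPM among 12393 other named rows averaging at least 1 log2 CPM, were Fads3 (0.992), Mcam (0.989) and Fam8a1 (0.989). A total of 453 rows had an r above 0.9 with Plin1. For Plin2 there were 17 such rows, led by Rnaseh1 (0.971), Rps16 (0.968) and Spi1 (0.958), the last a transcription factor of macrophages. These are the highest of many values and are given as a description with no test.

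No marker of any list was called between genotypes in edgeR, and 1, the mesothelial Slpi, had an unadjusted p under 0.05. Macrophage markers had 14 of 15 negative estimates (median log2 fold change -0.11), where all rows had 49.3% negative and 50.7% positive. Their summed level ran from 7328 to 8441 CPM in S273A and from 7715 to 10177 CPM in WT, with WT replicate 2 the highest. Markers of a cell type can vary together over libraries, so the signs in each list are not independent of each other. Lyz2 was at 1261 ± 122 CPM in S273A and 1287 ± 139 CPM in WT, and Ctss at 721 ± 94.1 CPM in S273A and 778 ± 149 CPM in WT. Adipocyte markers had 11 of 15 positive estimates (median 0.05), with sums from 11731 to 14074 CPM in S273A and from 10538 to 14856 CPM in WT; Cd36 was at 2949 ± 173 CPM in S273A and 2989.9 ± 94.96 CPM in WT and Lep at 1913 ± 316 CPM in S273A and 2062 ± 458 CPM in WT. With the macrophage score as a covariate the log2 fold change of Plin1 was -0.17 (edgeR unadjusted p 0.111) and that of Plin2 0.08 (unadjusted p 0.221), and no row was called. Plin5 had the smallest unadjusted p of the 9 genes in that fit (log2 fold change -0.22, edgeR unadjusted p 0.0643), against -0.09 without the covariate. Mesothelial markers had 9 of 9 positive estimates (median log2 fold change 0.30, from 0.18 to 0.43, beside 0.03 for the droplet genes), from 177 to 245 CPM in sum in S273A and 123 to 199 CPM in WT, led by Upk3b (58.7 ± 9.97 CPM in S273A and 47.6 ± 8.80 CPM in WT), Lrrn4 (40.7 ± 7.06 CPM in S273A and 32.9 ± 6.47 CPM in WT) and Wt1 (24.2 ± 4.71 CPM in S273A and 19.7 ± 3.34 CPM in WT). Slpi was at 24.3 ± 5.14 CPM in S273A and 17.9 ± 4.05 CPM in WT (log2 fold change 0.43, SE 0.19, edgeR unadjusted p 0.0434, adjusted p above 0.99), and the genotypes overlapped. S273A replicate 4 had the highest mesothelial sum. The part of mesothelial cells in the genotype estimates of the droplet genes was not tested. Liver and epididymis or testis contributed almost nothing. Of 6 hepatocyte markers 4 had a row, Alb had 7 to 29 counts, Apoa1 and Ttr had at most 3 and Fgb had none. Of 7 epididymis and testis markers 6 had a row, Lcn8 and Defb20 had no count in any library, and Rnase10, Crisp1 and Tnp1 had at most 8.

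The other genes of the droplet were taken from a list of 36, of which 35 had a row and 33 were tested. None was called higher or lower in S273A, with 17 positive and 16 negative estimates and a median log2 fold change of 0.003. Among the lipases and their regulators, 5 of 7 estimates were positive. Pnpla2, the lipase that starts triglyceride breakdown, was at 889 ± 83.4 CPM in S273A and 807 ± 83.5 CPM in WT (log2 fold change 0.14, SE 0.10). Its activator Abhd5, the partner of perilipin 1, was at 142 ± 15.0 CPM in S273A and 130 ± 16.2 CPM in WT (0.13, SE 0.10), and the monoglyceride lipase gene Mgll at 1445 ± 166 CPM in S273A and 1367 ± 198 CPM in WT (0.08, SE 0.12).

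Triglyceride synthesis and droplet assembly had 6 positive and 5 negative estimates among 11 tested genes. The fatty acid ligase gene Acsl3 was at 22.5 ± 1.44 CPM in S273A and 21.1 ± 1.33 CPM in WT (0.09, SE 0.07). Dgat2, which makes triglyceride at the droplet, was at 598 ± 104 CPM in S273A and 689 ± 242 CPM in WT (-0.20, SE 0.24), and the phosphatidate phosphatase gene Lpin1 at 326 ± 43.4 CPM in S273A and 349 ± 80.4 CPM in WT (-0.10, SE 0.16). Fitm1, the muscle relative of Fitm2, stayed below the filter at 0.177 ± 0.151 CPM in S273A and 0.125 ± 0.078 CPM in WT. Of the 15 tested genes of other surface and contact proteins, 6 had positive and 9 negative estimates. The smallest unadjusted p-values there belonged to the GTPase gene Rab18, at 117 ± 3.57 CPM in S273A and 123 ± 4.53 CPM in WT (-0.08, SE 0.05, edgeR unadjusted p 0.116), then Spast, at 57.2 ± 1.70 CPM in S273A and 60.9 ± 5.55 CPM in WT (-0.09, SE 0.07), and Hsd17b11, at 66.1 ± 6.65 CPM in S273A and 68.5 ± 4.32 CPM in WT (-0.05, SE 0.08).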

How the data were processed

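Counts per gene for 8 libraries (4 S273A, 4 WT) were deposited by the authors as 1 table of raw read counts, with a further column of feature lengths that, per the file headers, is another quantity and served only for RPKM. Per the submitters' processing notes, HISAT2 2.0.5, Picard 2.9.2 and featureCounts 1.5.2 were among the tools, with build mm10. Per the labels' protocols, RNA was depleted of ribosomal RNA and libraries carry no strand information. How reads at several places were counted is not given in the sources used here. Total counts per library ran from 14880239 to 18194889. No pair of libraries matched within counting noise (the lowest chi-square over its degrees of freedom was 5.53). Each was treated as a replicate, though this check cannot show that the libraries come from different animals.

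Counts were tested with edgeR 4.0.16 in R 4.3.3. The filter was filterByExpr, leaving 15667 of 31854 rows, library sizes were scaled by TMM, and glmQLFit (robust) and glmQLFTest were used without covariates. P-values were adjusted by Benjamini-Hochberg over all tested rows, with calls at 0.05. The test was checked on simulated counts. Log2 CPM for scores used a prior count of 2, and relations with the scores were also computed for all tested rows. Alternatives were DESeq2 1.42.0, limma-voom (limma 3.58.1), DESeq2 size factors, other filters, covariates, a replicate block and leaving out each library. Promoters came from RefSeq (GRCm38.p6) and gene positions from GENCODE M21 on GRCm38, both the assembly mm10 names; 9 of the 10 genes had a promoter entry, in 13 windows. All 10 members, the lists and the tests were chosen with earlier results of these data known. Named genes were the members, the 3 genes of smallest p in each droplet subgroup and up to 3 most abundant markers per list. The 3 rows most like Plin1 and Plin2 were also named. Ucp1, Fitm1, Mylpf, Tnnt3, Myh1, Slpi, Fgb, Lcn8, Defb20 and genes that overlap a member were named after their values were seen.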

Additional observations from a re-analysis of the deposited data

Results flagged for a closer look

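Of 26 sets of 4 libraries examined (each gene's CPM in each genotype, and the library scores), 1 had a value far from the other 3, where chance gives about 1 in 20. Plin2 in WT replicate 2 was at 1061 CPM, while the other WT libraries lay between 932 and 943 CPM. The gap to the nearest of them was 0.916 of the whole range, past Dixon's 95% critical value. The same library had the lowest adipocyte score of the 8 (-0.37) and the highest macrophage score (0.22). Over all 8 libraries Plin2 had r = -0.83 with the adipocyte score (exact permutation p = 0.00794) and 0.66 with the macrophage score (exact permutation p = 0.0802); without WT replicate 2 and S273A replicate 2 these were -0.72 and 0.25 (n = 6, exact permutation p = 0.111 and 0.665). Without WT replicate 2 the log2 fold change of Plin2 was 0.07 (edgeR adjusted p above 0.99), against 0.02 with all 8 libraries.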

How the results depend on the processing

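No droplet gene was called under any of the alternatives run, with edgeR, DESeq2 or limma-voom adjusted p between 0.999095 and 0.999983. Over all rows, DESeq2 called 1 row, and edgeR called between 0 and 1 when a library was left out (1 without S273A replicate 4). With 1 library left out, log2 fold changes ran from -0.121 to 0.11 for Plin1, -0.0269 to 0.173 for Plin4, -0.127 to 0.107 for Cidec, -0.0113 to 0.0707 for Plin2, -0.173 to 0.0431 for Plin5, -0.0866 to 0.152 for Bscl2 and -0.0867 to 0.160 for Fitm2, so their signs turned on single libraries; Cidea (0.34 to 0.94) and Plin3 (0.01 to 0.10) kept theirs. With the macrophage score as a covariate the sign turned for Plin1 (-0.171), Plin4 (-0.0983), Cidec (-0.106), Bscl2 (-0.0936) and Fitm2 (-0.108); with the adipocyte score, an alternative chosen after seeing the data, it turned for Plin1 (-0.0425), Cidec (-0.0162) and Fitm2 (-0.00671). With CPM of at least 1 in at least 4 libraries, Cidec was at -0.000275 and Cidea was filtered out. Only numbers 2 and 3 occur in both genotypes. Same-numbered libraries did not deviate together (r of -0.08 and -0.22 over rows), but these pairs cannot show whether a number marks a shared origin. The fit with a replicate block called 0 rows. Its genotype estimates rest only on the libraries numbered 2 and 3, because every other number occurs once. They were -0.0605 for Cidec, -0.0499 for Plin2 and -0.00631 for Fitm2. Cidea was at 1.01 (edgeR unadjusted p 0.0782) and Plin4 at 0.154, against 0.59 and 0.08 in all 8 libraries without the block. Summing rows of a symbol changed nothing, since each gene stands on 1 row. Of the 18 relations with marker scores, 8 passed; 4 passed with marker lists without their 3 most abundant members (Plin5 and Bscl2 with the adipocyte score and Plin1 and Plin4 with the macrophage score did not) and 5 with DESeq2 size factors (Plin2 and Plin5 with the adipocyte score and Plin1 with the macrophage score did not), and the cause was not tested. Depth limits Cidea, at 10 to 38 counts per library.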
